A study of Mus musculus with 45 samples.

Results

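The genes described here are 10 genes of antigen presentation and of lymphocytes, read in mouse hearts: the MHC class II genes H2-Aa, H2-Ab1, H2-Eb1, Cd74, H2-DMa and Ciita, the B cell gene Cd79b, and the T cell genes Cd3g, Cd3d and Cd8a. They were taken as every probe set of the array whose single annotated symbol is one of these names, which gave 15 of 22690 probe sets for 10 of 12394 genes. A gene with several probe sets was represented by the one whose mean across the 45 arrays was highest. The means of 2 genes, Ciita (4.39 log2 units) and Cd3g (3.68), lay below 4.90, under which the lowest 25% of genes were left out of the tests, so 8 of the 10 genes were tested.

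Each of the 45 arrays held the heart RNA of 1 male C57BL/6 mouse bought at 13 weeks of age. Regular weight mice (RW) were fed about 5 kcal% fat. Diet-induced obese mice (DIO) were fed 60 kcal% fat from 6 weeks of age, which was 9 weeks before exposure began. At 15 weeks of age the mice started to breathe filtered air (SC, sham control), mainstream cigarette smoke (MS) or sidestream cigarette smoke (SS) through the nose, 5 h a day, on 8 days over 2 weeks, and they were necropsied a day after the last exposure. The lean groups held 8 (RW-SC), 8 (RW-MS) and 7 (RW-SS) arrays, and the obese groups held 8 arrays in air (DIO-SC), 6 in mainstream (DIO-MS) and 8 in sidestream smoke (DIO-SS). Arrays are named by group and replicate number. All groups, air included, had nose-only exposure, and no genetic change is named in the labels. The p-values rest on the spread between mice within groups, with 1 estimate per gene shared by all 6 groups. An array that stands apart can thus move the p-value of a comparison that does not hold it. The deposited values are log2 expression levels, so a difference of 1 log2 unit is a 2-fold difference, and levels of different probe sets are not compared with each other. The number of arrays limits the precision.

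MHC class II molecules show peptides from outside the cell to CD4+ T cells. They are made mainly by macrophages, dendritic cells and B cells, all of which live in the heart beside the muscle cells. H2-Aa and H2-Ab1 encode the alpha and beta chains of the I-A molecule, and H2-Eb1 encodes the beta chain of I-E. C57BL/6 mice make no I-E molecule, because their H2-Ea gene, for the alpha chain, is not transcribed. Cd74 encodes the invariant chain that fills the groove until peptide is loaded, H2-DMa encodes a chain of the peptide-exchange factor H2-DM, and Ciita encodes the master coactivator of these genes, which interferon gamma induces in cells that otherwise lack it. Cd79b encodes a signalling chain of the B cell receptor, Cd3g and Cd3d encode signalling chains of the T cell receptor complex, and Cd8a encodes a chain of the CD8 coreceptor of cytotoxic T cells and of most immature T cells in the thymus.

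Class II promoters carry an X box, bound by the RFX complex, and a Y box, bound by NF-Y, to which Ciita docks. The promoter windows of the 2 class II chain genes that had one in the RefSeq table (GRCm38.p6, 250 bases before to 50 bases after the start site) are shown because the class II chain genes rose and fell together from array to array. That of H2-Aa lies at chr17:34287774-34288073 on the minus strand, and that of H2-Eb1 at chr17:34305617-34305916 on the plus strand. Capitals mark the X box core GCAACT and the extended Y box CTGATTGG.
H2-Aa: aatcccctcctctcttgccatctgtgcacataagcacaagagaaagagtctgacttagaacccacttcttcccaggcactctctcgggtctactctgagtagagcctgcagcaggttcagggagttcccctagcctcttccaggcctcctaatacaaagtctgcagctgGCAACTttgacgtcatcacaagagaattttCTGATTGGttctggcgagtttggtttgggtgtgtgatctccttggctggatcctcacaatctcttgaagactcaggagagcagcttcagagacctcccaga
H2-Eb1: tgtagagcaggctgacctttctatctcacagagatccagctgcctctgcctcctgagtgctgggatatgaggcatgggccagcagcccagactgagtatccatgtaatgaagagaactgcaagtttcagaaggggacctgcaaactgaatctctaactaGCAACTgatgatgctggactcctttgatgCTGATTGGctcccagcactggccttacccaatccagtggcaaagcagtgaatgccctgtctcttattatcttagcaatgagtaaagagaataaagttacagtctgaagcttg
In H2-Aa the X box core began 81 bases and the Y box 51 bases before the start site, with 24 bases between them. In H2-Eb1 they began 91 and 62 bases before it, with 23 bases between. Both motifs, searched on both strands, were found together in 0.466% of 32851 windows, CTGATTGG in 4.1% and GCAACT in 10.9%, and these letters were chosen after the 2 sequences were seen. The shorter Y box core ATTGG, which lies within CTGATTGG, was in 37.4% of windows. It was found in H2-Aa, H2-Eb1 and 1 of the windows of H2-DMa. An X box consensus, AGNNACAG, was in 25.9% of windows and at none of the X box cores marked above. It had no match in H2-Aa, and its matches in H2-Eb1 began at -7 and 31 from the start site, downstream of the marked Y box. Cd3d had a match too. Neither ATTGG nor AGNNACAG was found in the windows of Cd3g and Cd8a. 6 of the 10 genes had a window, and matches describe letters only.

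All 45 arrays carried the mark of heart muscle: the 9 measured cardiomyocyte markers had means from 11.87 (Ryr2) to 14.61 (Mb). For the other cell types, the mean of a marker list on an array is given relative to its mean over the 45 arrays. In RW-MS, arrays 2, 6 and 8 had atrial marker means of -4.65, -3.91 and -3.82, against -0.52 or more on every array outside that group. On the probe sets that represent these genes, H2-Aa (9.89, 9.80 and 9.82), H2-Ab1, H2-Eb1 and Cd74 lay within the range of the other RW-MS arrays on those 3 arrays. RW-MS 6 was the lowest of its group for H2-DMa (5.51, next 5.55), and RW-MS 8 the highest for Ciita (4.53, next 4.45).

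Single arrays stood apart for these genes, and they come before the group results. An array was taken to stand apart for a probe set if it lay over 1 log2 unit from the median of its group. This held on 4 arrays: RW-MS 7 (13 of 15 probe sets), RW-SS 7 (7), RW-SC 1 (6) and DIO-SC 2 (4). In every case the array was higher than its group. The arrays differed in which of the genes were high.

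**Figure D1:**
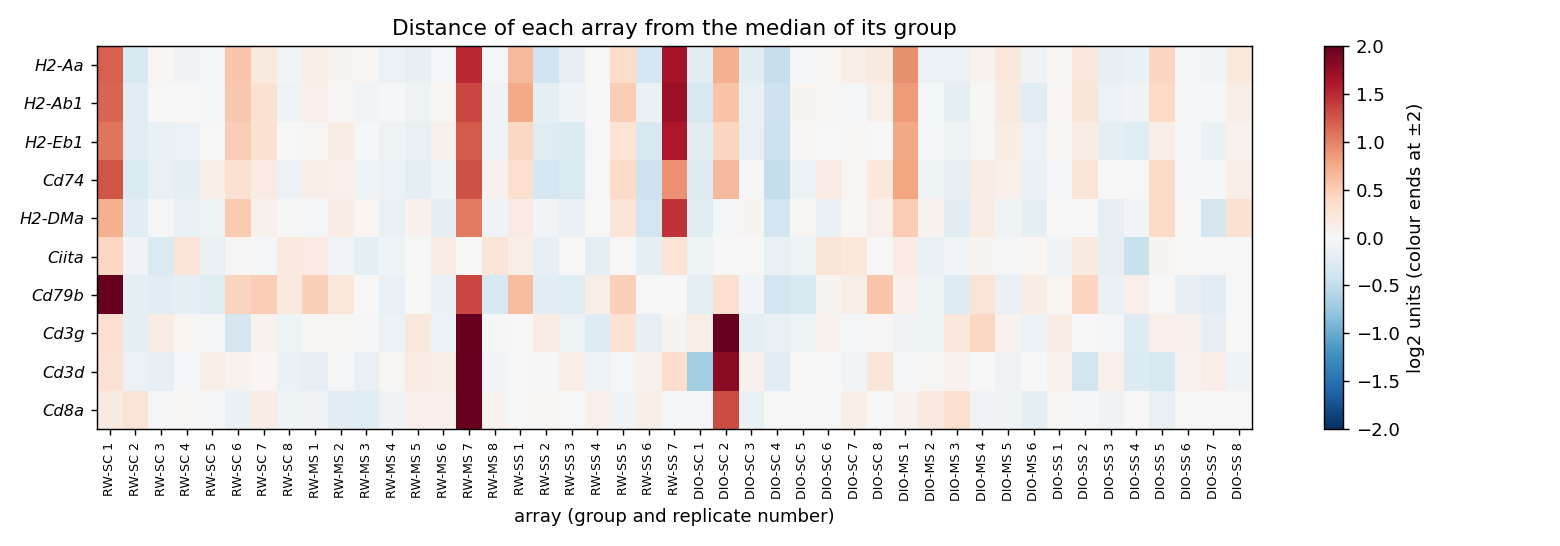
Distance of each of the 45 arrays from the median of its own group, in log2 units, for the 10 genes. Red is higher and blue is lower. RW-MS 7 is high in the class II genes other than Ciita (chosen probe set), in Cd79b and in the T cell genes, RW-SC 1 in the class II chains and Cd79b, RW-SS 7 in the class II genes, and DIO-SC 2 in the T cell genes.

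RW-MS 7 had the highest T cell values of the series. Cd3g read 8.58 there against a group median of 3.42, Cd3d 8.69 against 5.21 and Cd8a 7.72 against 5.17. H2-Aa (11.34 against 9.83), Cd74 (9.36 against 8.09) and Cd79b (6.81 against 5.48) were high as well. The probe set chosen for Ciita read 4.28, close to its group median of 4.29, while the other Ciita probe set also read 4.28, against a group median of 3.74, its highest value of the 45 arrays. On this array 9 of the 10 measured thymocyte markers had their highest value of all 45 arrays. Among them were Rag1, a chain of the recombinase that assembles antigen receptor genes (9.70 against a group median of 2.88), the DNA polymerase Dntt (8.74 against 5.01), which adds bases at receptor gene joints, and the homing receptor Ccr9 (8.87 against 3.38). Of the 16 measured T cell markers, 14 were highest there, while Cd4 was second highest at 6.21. The list means were 3.10 for thymocytes, 1.86 for T cells, 0.96 for B cells and 0.53 for macrophages. In the macrophage list only Ptprc (10.08 against a group median of 6.72), Laptm5 (9.03 against 7.34) and Cd53 (8.53 against 7.22), which most leukocytes make, were highest of the 45 arrays there, while Csf1r (10.10 against 9.94) and Adgre1 (7.32 against 7.08) were not. What part cells of another tissue had in these values was not tested.

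DIO-SC 2 showed the T cell side of the same picture at lower values. Cd3g read 6.50 against a group median of 3.55, Cd3d 7.03 against 5.23 and Cd8a 6.52 against 5.22. These 3 genes were second highest of the 45 arrays there, after RW-MS 7. Rag1 read 8.00, Dntt 6.97 and Ccr9 7.27, and 8 of the 10 thymocyte markers had their highest or second highest value on this array. Cd79b was not apart (5.80, group median 5.48). H2-Aa was the highest of its group at 10.14 but within 1 log2 unit of the median of 9.44. The list means were 1.70 for thymocytes, 0.63 for T cells, 0.12 for B cells and 0.88 for fat cells, the last being the highest of the DIO-SC group.

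RW-SC 1 was the B cell array. Cd79b read 8.24 against a group median of 5.57, its highest value in the series by more than 1 log2 unit over RW-MS 7 (6.81). The class II chains were also high, with H2-Aa at 10.95, H2-Ab1 at 9.33, H2-Eb1 at 9.16 and Cd74 at 9.30. The T cell genes stayed near their medians (Cd3g 3.86, Cd3d 5.57, Cd8a 5.24). Of the 17 measured B cell markers 12 had their highest value here, among them the immunoglobulin heavy chain Ighm (12.01 against a group median of 7.85), Jchain, which joins IgM and IgA units (11.32 against 4.94), and Ms4a1, which encodes CD20 (8.41 against 4.52). Ighm and Jchain were second highest on RW-MS 7, at 11.16 and 10.10. The list means on RW-SC 1 were 1.53 for B cells, 0.54 for macrophages, 2.03 for fat cells, 0.08 for T cells and -0.02 for thymocytes.

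RW-SS 7 was high in class II and near its group in the lymphocyte genes. H2-Aa read 11.60 against a group median of 9.94, H2-Eb1 9.88 against 8.27 and H2-DMa 7.15 against 5.71, each the highest of the 45 arrays. Cd79b (5.44), Cd3g (3.61) and Cd8a (5.13) lay within the range of the other arrays of the group, and Cd3d (5.51) was the highest of the group, whose next value was 5.29 and median 5.15. Interferon gamma response genes were highest here for 11 of 17 measured: the GTPase Igtp read 10.87 against 8.00, Gbp2, another GTPase, 10.72 against 8.25, and the chemokine Cxcl9 8.45 against 6.76. Of the 12 class I presentation genes 8 were highest, for example the peptide transporter Tap1 at 7.69 against 6.26. The list means were 1.25 for the interferon genes, 0.66 for class I, 0.42 for macrophages, -0.05 for B cells and 0.03 for T cells. The 3' minus 5' difference of the Gapdh control probe sets, a sign of RNA breakdown or short cDNA, was 0.94 on this array and at most 0.40 on the others. That of the Actb probe sets was 1.65 against at most 1.34. The part of RNA quality in the class II values was not tested.

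DIO-MS 1 was the highest of its group in H2-Aa (10.45, next highest 9.73), H2-Ab1 (8.82), H2-Eb1 (8.70) and Cd74 (8.51) and lay within 1 log2 unit of the median. Its list means were 0.31 for interferon genes, 0.38 for B cells and 0.01 for T cells.

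The class II genes moved together from array to array. After group means were removed, Pearson's r over the 45 arrays was 0.99 between H2-Aa and H2-Ab1, 0.98 between H2-Aa and H2-Eb1, 0.96 between H2-Aa and Cd74, and 0.90 between H2-Aa and H2-DMa. Without the 2 farthest arrays, RW-SS 7 and RW-MS 7, these values were 0.98, 0.97, 0.95 and 0.82. The coefficient of H2-Aa with Ciita was lower, at 0.48, and that with Cd79b was 0.65. These points share a normalization across arrays and, within an array, 1 RNA sample. The T cell genes gave 0.94 (Cd3g with Cd3d) and 0.95 (Cd3g with Cd8a), which fell to 0.61 and 0.66 without RW-MS 7 and DIO-SC 2. The group means removed were always those of all 45 arrays. They still hold the left-out arrays, so the second values do not measure likeness among the remaining hearts alone.

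The genes most like the members were sought among all 12394 genes by Pearson's r over the 45 arrays with group means removed. The mean of H2-Aa, H2-Ab1, H2-Eb1 and Cd74 was nearest to Ctss (0.91), which encodes the protease that trims the invariant chain, Mpeg1 (0.89), a pore-forming protein of macrophages, Ly86 (0.87), Cd52 (0.86) and Irf8 (0.85), a transcription factor of myeloid and B cells. Without RW-MS 7 and RW-SS 7 the coefficients were 0.83, 0.80, 0.84, 0.82 and 0.72. The mean of Cd3g, Cd3d and Cd8a was nearest to Sh2d1a, Trbv1, Ccl25, Myb and Rag1, each at 0.98, and at 0.82 to 0.85 without RW-MS 7 and DIO-SC 2. Ccl25 encodes the chemokine that binds Ccr9 and is made in the thymus and small intestine. Cd79b was nearest to Pou2af1 (0.88), a B cell coactivator, Ms4a1 (0.88), Ltb (0.85) and 2 immunoglobulin kappa light chain variable genes (0.85 each). Without RW-MS 7 and RW-SC 1 these values were 0.58, 0.71 and 0.73 for the named genes and 0.73 and 0.47 for the light chain genes. Here too, for each set of members, the left-out arrays stayed in the group means that were removed. The second values thus do not measure likeness among the remaining hearts alone.

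The first group comparison asked how the diet bears on these genes, as the mean of the 3 differences between DIO and RW mice in air, mainstream and sidestream smoke. The 3 chain genes and the invariant chain fell in obese mice: H2-Aa by 0.45 ± 0.14 log2 units (SE, 1.36-fold lower), H2-Ab1 by 0.42 ± 0.13 (1.34-fold), H2-Eb1 by 0.34 ± 0.12 (1.26-fold) and Cd74 by 0.39 ± 0.12 (1.31-fold), over 22 DIO and 23 RW arrays. H2-DMa, Cd79b, Cd3d and Cd8a did not pass the test. The number past the threshold was thus 4 of 8, all lower. Among all 9295 genes tested, 15.6% were called lower and 30.7% were called in either direction. In bulk tissue, fewer cells that make these molecules and less RNA per cell cannot be told apart.

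H2-Aa, the I-A alpha chain, showed the levels behind this. Its lowest, median and highest values were 9.45, 9.76 and 10.95 in RW-SC, 9.67, 9.83 and 11.34 in RW-MS, and 9.53, 9.94 and 11.60 in RW-SS. In obese mice they were 8.98, 9.44 and 10.14 in DIO-SC, 9.40, 9.52 and 10.45 in DIO-MS, and 9.45, 9.61 and 10.04 in DIO-SS. The ranges of DIO and RW groups overlapped in each exposure, and 20 of 22 DIO arrays lay below the mean of the RW group of their exposure. The exceptions were DIO-SC 2 and DIO-MS 1. The group means ran from RW-SS (10.19 ± 0.73, SD, n = 7) through RW-MS (10.004 ± 0.55, n = 8), RW-SC (9.95 ± 0.48, n = 8), DIO-SS (9.68 ± 0.20, n = 8) and DIO-MS (9.67 ± 0.40, n = 6) to DIO-SC (9.45 ± 0.35, n = 8). Each neighbouring pair in this order differed by less than the SD of the more variable group of the pair. The second H2-Aa probe set also passed, with a difference of -0.40 ± 0.13 (adjusted p = 0.0251, limma, all probe sets tested).

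H2-Ab1, its beta chain partner, read from 7.95 to 9.33 (median 8.16) in RW-SC, 8.20 to 9.64 (8.30) in RW-MS and 7.99 to 9.905 (8.17) in RW-SS. The DIO groups read 7.54 to 8.51 (7.94) in air, 7.77 to 8.82 (7.97) in mainstream smoke and 7.93 to 8.44 (8.05) in sidestream smoke. In mainstream smoke 5 of 6 DIO arrays lay below the lowest RW array, against 4 of 8 in air and 2 of 8 in sidestream smoke. The one above it in mainstream smoke was DIO-MS 1, and the difference there did not pass (adjusted p = 0.303, limma). Such arrays were not counted for all genes. The other 2 H2-Ab1 probe sets gave -0.27 and -0.30 and missed the threshold when all probe sets were tested (adjusted p = 0.0753 and 0.0571, limma).

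Cd74, the invariant chain, read from 7.75 to 9.30 (median 8.04) in RW-SC, 7.92 to 9.36 (8.09) in RW-MS and 7.72 to 9.05 (8.13) in RW-SS. It read 7.26 to 8.37 (7.73) in DIO-SC, 7.55 to 8.51 (7.71) in DIO-MS and 7.75 to 8.17 (7.79) in DIO-SS. The DIO median lay below the RW median in each exposure, by 0.32, 0.37 and 0.34 log2 units. H2-Eb1 read from 7.87 to 9.88 over the RW arrays and from 7.51 to 8.70 over the DIO arrays, and 20 of 22 DIO arrays again lay below the mean of their RW group. H2-Ea, its partner that C57BL/6 mice do not transcribe, read between 5.80 and 6.56 on all 45 arrays, with its highest value in RW-MS 1 and not on the arrays that were high in H2-Eb1.

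**Figure D2:**
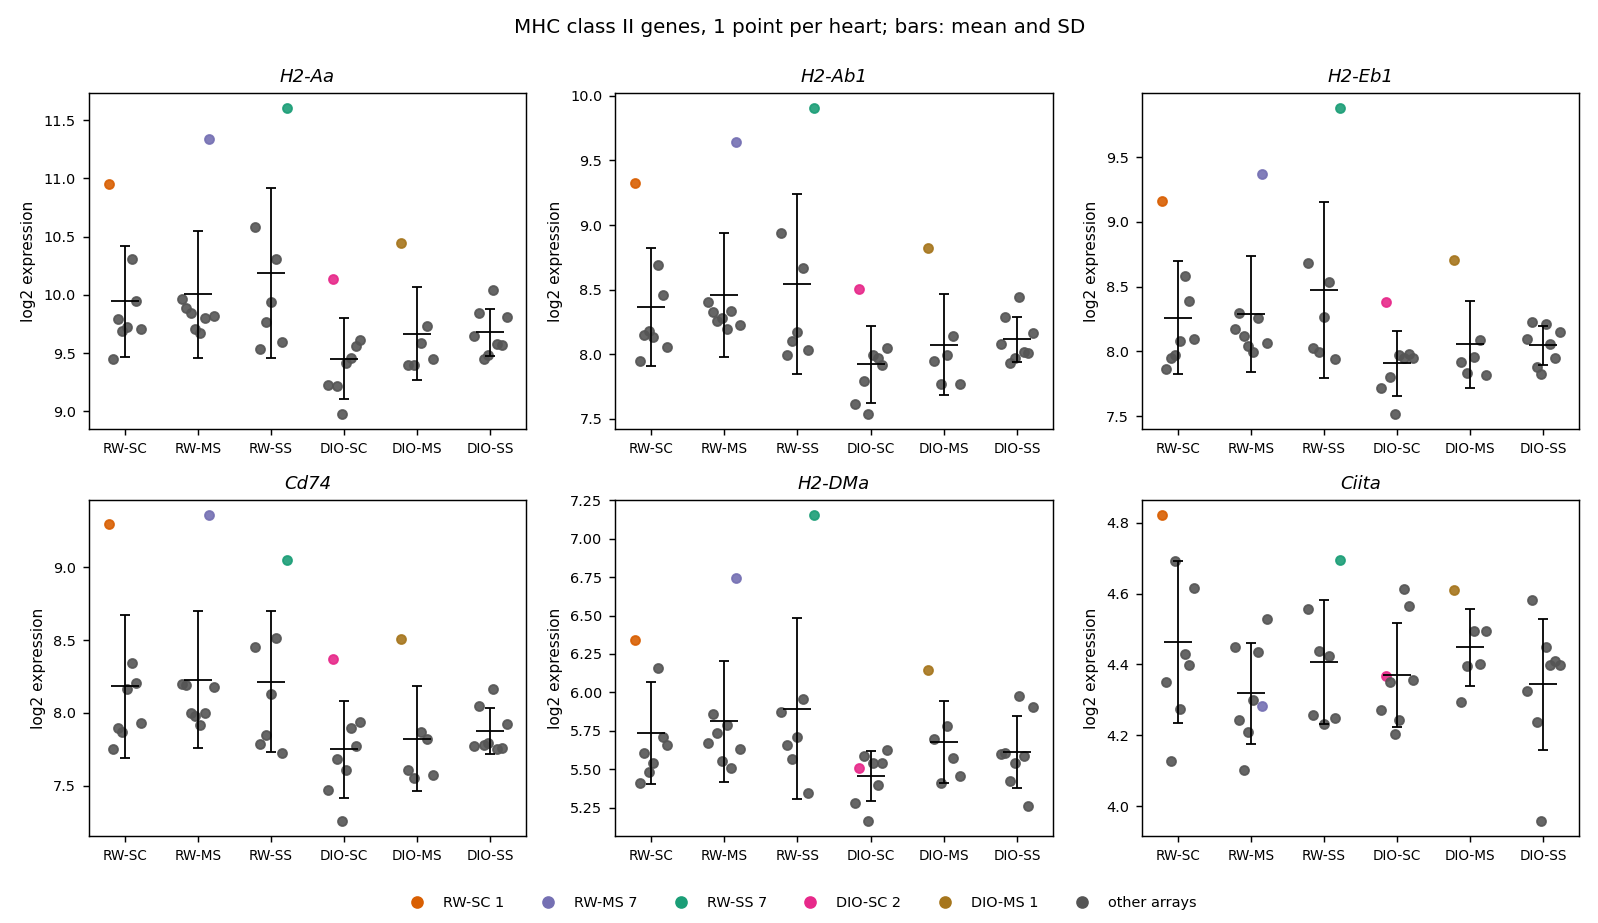
Log2 expression of the 6 class II genes by group, with 1 point for each heart and the mean and SD of each group as bars. Coloured points are the 4 arrays over 1 log2 unit above their group and DIO-MS 1. H2-Aa, H2-Ab1, H2-Eb1 and Cd74 sit lower in the DIO groups and Ciita does not.

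In limma's test with Benjamini-Hochberg adjustment over 9295 genes, the adjusted p values for diet were 0.0105 for H2-Aa, 0.00957 for H2-Ab1, 0.0261 for H2-Eb1 and 0.00765 for Cd74. The differences that did not pass were -0.23 for H2-DMa (95% interval -0.44 to -0.03, adjusted p = 0.0776), -0.26 for Cd79b (-0.56 to 0.04, 0.188), -0.14 for Cd3d (-0.50 to 0.22, 0.587) and -0.10 for Cd8a (-0.36 to 0.16, 0.608). Ciita gave -0.01 and Cd3g -0.08 in the fit without a filter. The median difference of the 8 tested genes was -0.30, beside -0.0058 for all genes tested. At an unadjusted p under 0.05 there were 5 of 8, against 40.2% of all genes.

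The size of the diet difference rested in part on the arrays that stood apart. Without RW-SC 1, RW-MS 7, RW-SS 7 and DIO-SC 2, an alternative chosen after the data were seen, the same 4 genes were past the threshold, with -0.29 for H2-Aa (adjusted p = 0.00707), -0.27 for H2-Ab1 (0.00707), -0.19 for H2-Eb1 (0.0322) and -0.27 for Cd74 (0.00443, limma). In that setting 33.1% of all genes were called, and 17% were called lower. Fat cell markers were lower with the diet, and their list mean followed class II loosely. With group means removed, Pearson's r with the mean of the 4 class II genes over the 45 arrays was 0.38 for the fat cell list. It was 0.84 for macrophages, 0.83 for class I genes, 0.69 for B cells, 0.63 for interferon genes and 0.55 for T cells. Without RW-SS 7 and RW-MS 7, which stayed in the group means, these were 0.40, 0.74, 0.71, 0.75, 0.47 and 0.41 in the same order. Of 8 listed, 6 were on the array, and 3 of the 5 tested were lower in DIO mice (Retn, Cidec and Ucp1), with a median difference of -1.03. The fat cell list mean ranged from -1.47 to 2.03 in RW-SC, -2.28 to 1.95 in RW-MS, -1.83 to 2.22 in RW-SS, -1.93 to 0.88 in DIO-SC, -1.60 to 0.81 in DIO-MS and -0.95 to 1.56 in DIO-SS. With that mean as a term in the model, also chosen after the data were seen, 0 of 8 genes were past the threshold (limma). H2-Aa was then at -0.30 (adjusted p = 0.0837), H2-Ab1 at -0.29 (0.0767), H2-Eb1 at -0.24 (0.137) and Cd74 at -0.29 (0.0575), while 30.9% of all genes were called. With the macrophage list mean in the model instead, a list that holds the general leukocyte genes Ptprc, Laptm5 and Cd53, 4 genes were past it. In that fit 32.8% of all genes were called, and 16.8% were called lower.

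**Figure D3:**
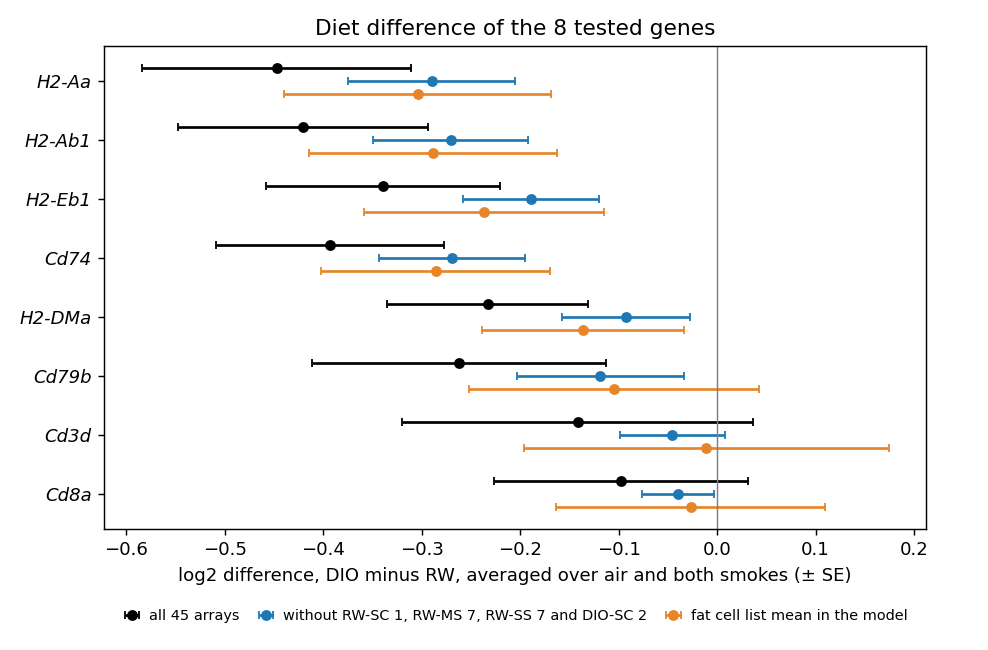
Diet difference (DIO minus RW, averaged over air and both smokes) of the 8 tested genes in log2 units, with SE bars. Black is all 45 arrays, blue leaves out 4 arrays that stood apart, and orange has the fat cell list mean in the model. H2-Aa moves from -0.45 with all arrays to -0.29 without the 4 arrays and -0.30 with the fat cell term.

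**Figure D4:**
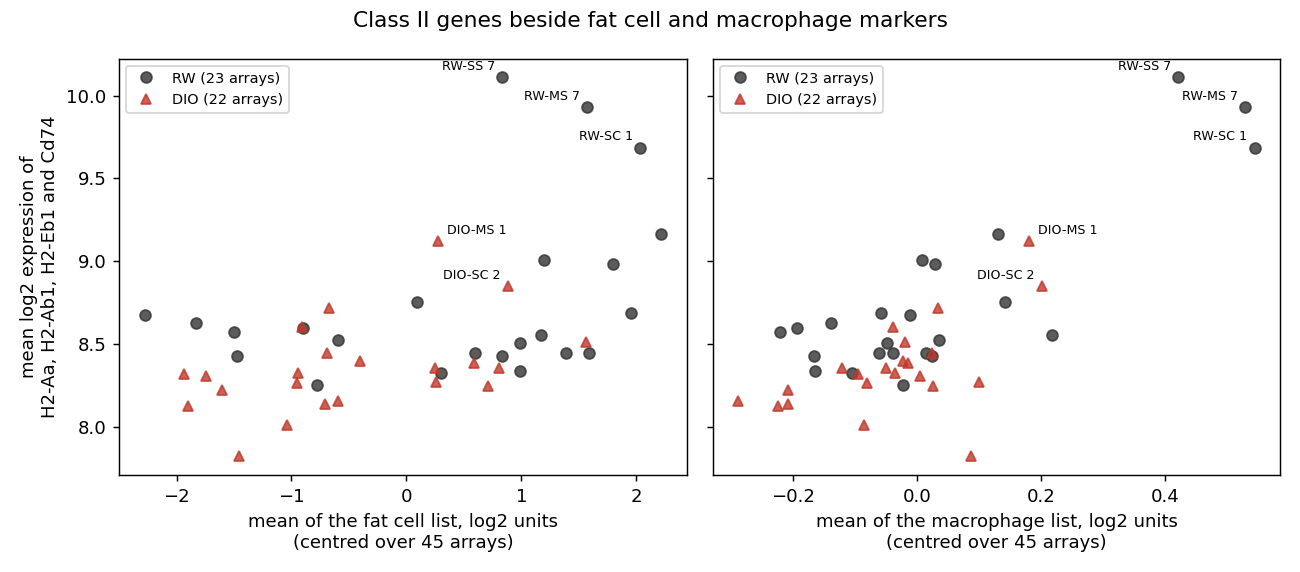
Mean log2 expression of H2-Aa, H2-Ab1, H2-Eb1 and Cd74 on each array, plotted against the array's mean of the fat cell markers (left) and macrophage markers (right). Circles are the 23 RW arrays and triangles the 22 DIO arrays. RW-SS 7, RW-MS 7 and RW-SC 1 are highest on both plots in class II, and their macrophage means (0.42, 0.53 and 0.54) are the highest of the series.

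Taken one exposure at a time, the diet difference of H2-Aa, H2-Ab1, H2-Eb1 and Cd74 had the same sign each time and did not pass the test. In air (DIO-SC against RW-SC) H2-Aa differed by -0.50 (95% interval -0.96 to -0.03, adjusted p = 0.119), H2-Ab1 by -0.44 (0.132), H2-Eb1 by -0.35 (0.207) and Cd74 by -0.43 (0.104, limma). In sidestream smoke (DIO-SS against RW-SS) H2-Aa differed by -0.51 (0.0910) and H2-Eb1 by -0.43 (0.104). In mainstream smoke (DIO-MS against RW-MS) Cd74 was at -0.41 (0.222) and H2-Aa at -0.34 (0.428). Cd3d (0.08) and Cd8a (0.28) were on the other side of 0 in air. The count was 0 of 8 in each of these 3 comparisons, where 20.3% (air), 10.6% (mainstream) and 32.6% (sidestream) of all genes were called. At an unadjusted p under 0.05 there were 3, 0 and 2 of 8, against 33.7%, 24.5% and 43.5% of all genes. Single arrays moved these calls. Without RW-SS 2, H2-Aa in sidestream smoke was at -0.62 (adjusted p = 0.0466), in a fit where the share of all genes called was not counted. In the air comparison, without the 4 arrays that stood apart H2-Aa (-0.45, adjusted p = 0.0206), H2-Ab1 (-0.39, 0.0304) and Cd74 (-0.36, 0.0325, limma) were past the threshold. There 23.6% of all genes were called, and 15.4% were called lower.

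No smoke comparison moved any of the 8 tested genes past the threshold in limma's test. In RW-MS against RW-SC 0 of 8 passed, where 6.86% of all genes were called, and in RW-SS against RW-SC 0 of 8, where 24.6% were. In obese mice the counts were 0 of 8 for DIO-MS against DIO-SC (4.55% of all genes) and 0 of 8 for DIO-SS against DIO-SC (31.8%). At an unadjusted p under 0.05 it was 0 of 8 in all 4, against 20.1%, 37.1%, 18.1% and 42.3% of all genes in that order. Comparisons within a diet share the same air arrays, and each is given by its own values. The 95% intervals set how much could have been missed. For H2-Aa they ran from -0.40 to 0.52 in RW-MS, -0.23 to 0.72 in RW-SS, -0.28 to 0.71 in DIO-MS and -0.23 to 0.69 in DIO-SS. For Cd74 they ran from -0.34 to 0.43, -0.37 to 0.43, -0.35 to 0.49 and -0.26 to 0.51. With the macrophage list mean in the model, chosen after the data were seen, H2-Aa (0.44, adjusted p = 0.0108), H2-Ab1 (0.37, 0.0210) and H2-Eb1 (0.38, 0.0161) were past the threshold in RW-SS against RW-SC. In that fit 27.1% of all genes were called. The RW-SS group held RW-SS 7.

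Ciita stayed within a narrow range. The probe set chosen for it read from 3.96 (DIO-SS 4) to 4.82 (RW-SC 1) over the 45 arrays, and its group means lay between 4.32 (RW-MS) and 4.46 (RW-SC) with SDs of 0.11 to 0.23. The second probe set read from 3.40 to 4.28. On RW-SS 7, where class II and interferon genes were high, the 2 Ciita probe sets read 4.69 and 4.22, each the highest of its group. Both probe sets lay below the filter, so a change of this gene could not be measured well here.

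Other genes of class II presentation and its control moved little and not in 1 direction with diet. Of 14 tested, 1 was higher (the protease Lgmn, 0.11, adjusted p = 0.0101) and 1 lower (the protease Ctsl, -0.11, 0.0233, limma), fewer than the 30.7% called among all genes. Under smoke the counts were 2 of 14 in RW-MS (0 higher, 2 lower, beside 6.86% of all genes) and 3 in RW-SS (1 higher, 2 lower, beside 24.6%). In DIO-MS the count was 0 (beside 4.55%), and 1 at an unadjusted p under 0.05 (beside 18.1%). In DIO-SS it was 4 (2 higher, 2 lower, beside 31.8%, limma). Nfyb, a subunit of the Y box factor NF-Y, was lower in RW-SS mice by -0.38 (adjusted p = 1.76e-06) and in DIO-SS mice by -0.24 (0.000531). Lgmn was higher in both (0.20 and 0.25). Rfx5, a subunit of the X box complex, was lower in RW-MS (-0.21, 0.0385). Nfyc, another NF-Y subunit, was lower in RW-MS (-0.15, 0.0100) and RW-SS (-0.12, 0.0157). Rfxap, the partner of Rfx5 in the X box complex, was higher in DIO-SS mice (0.19, 0.00317). There Creb1, which also binds the X box region, was lower (-0.22, 0.00648).

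A few class I presentation and interferon genes were lower in DIO mice, to be read beside the 15.6% of all genes called lower. Of 12 class I genes tested, 3 were lower with diet: the peptide transporter subunits Tap1 (-0.30, adjusted p = 0.00436) and Tap2 (-0.13, 0.0478) and the immunoproteasome subunit Psmb9 (-0.26, 0.0327). Of 15 interferon gamma response genes, 2 were lower: the GTPase Iigp1 (-0.61, 4.01e-05) and the receptor kinase Jak1 (-0.39, 4.06e-12, limma). The same 3 class I genes and 2 interferon genes were lower without the 4 arrays that stood apart, beside 17% of all genes. With the fat cell list mean in the model, Iigp1, Jak1 and Tap1 were lower and Tap2 and Psmb9 did not pass. In that fit 15.6% of all genes were called lower. Of 17 macrophage genes tested 4 were lower (Cd14, Lyz2, Aif1 and Fcer1g), again beside 15.6% of all genes. The range of the macrophage list mean was -0.06 to 0.54 in RW-SC, -0.22 to 0.53 in RW-MS, -0.17 to 0.42 in RW-SS, -0.23 to 0.20 in DIO-SC, -0.29 to 0.18 in DIO-MS and -0.08 to 0.10 in DIO-SS. The part of macrophage or fat cell number in the class II difference was not tested beyond the 2 models above.

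Cd79b, the B cell receptor chain, read 5.33 to 8.24 (median 5.57) in RW-SC, 5.18 to 6.81 (5.48) in RW-MS and 5.22 to 6.07 (5.45) in RW-SS. In obese mice it read 5.10 to 6.02 (5.48) in DIO-SC, 5.15 to 5.67 (5.41) in DIO-MS and 5.23 to 5.90 (5.46) in DIO-SS. The group medians differed by less than the SD of any group, and the SD of RW-SC (0.98) came from RW-SC 1. Of 7 B cell list genes tested, 1 was lower with diet (Ebf1, a transcription factor that fat cells also make, -0.14, adjusted p = 0.0130, limma), which is about the 15.6% of all genes called lower.

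Cd3g read 3.19 to 3.86 over the 43 arrays other than RW-MS 7 and DIO-SC 2, and Cd3d read 4.54 to 5.57 over them. The SD of Cd3g was 1.83 in RW-MS and 1.06 in DIO-SC, against 0.14 to 0.21 in the other groups. Its group means followed these 2 arrays, at 4.06 in RW-MS and 3.89 in DIO-SC, with 3.50 to 3.55 elsewhere. Cd3d did likewise, with SDs of 1.24 and 0.72 in those groups and 0.06 to 0.21 in the others.

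**Figure D5:**
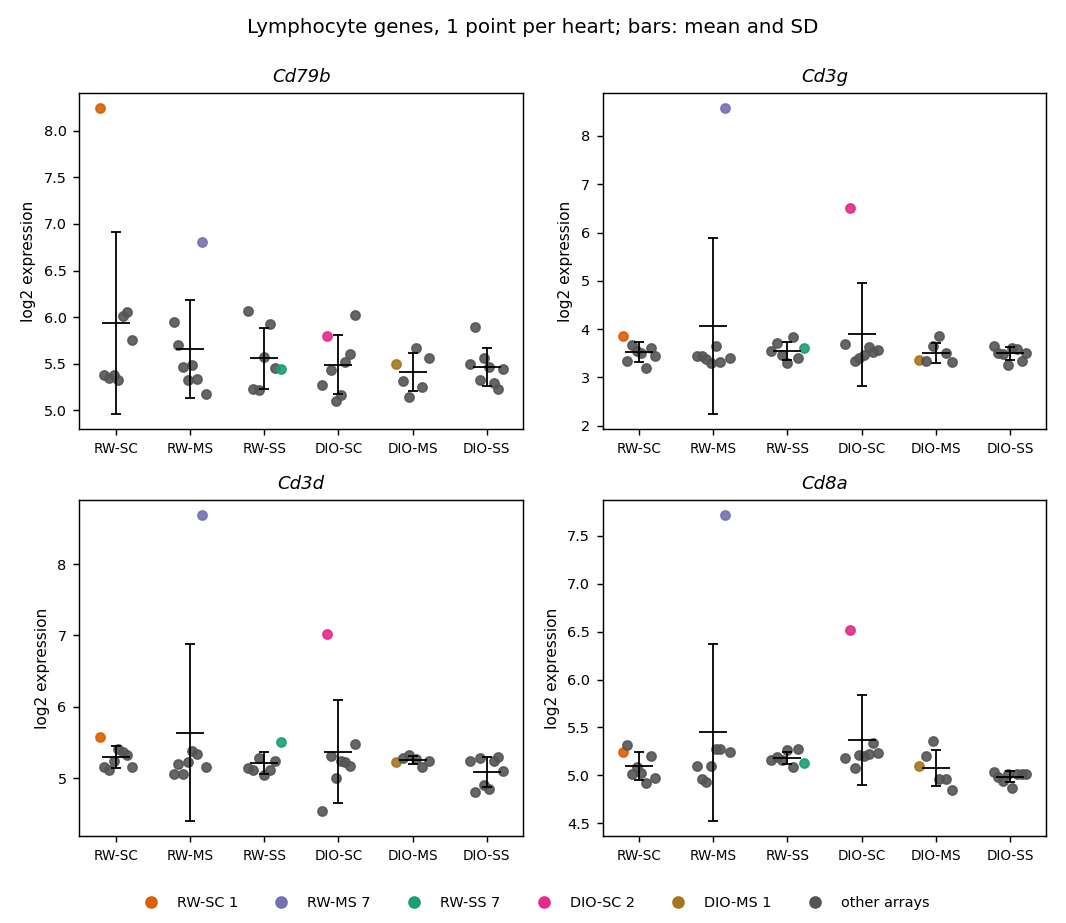
Log2 expression of Cd79b, Cd3g, Cd3d and Cd8a by group, with 1 point for each heart and the mean and SD of each group as bars. RW-SC 1 is highest in Cd79b (8.24), and RW-MS 7 and DIO-SC 2 are highest in the 3 T cell genes (Cd3g 8.58 and 6.50).

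Cd8a was the T cell gene with a group difference once those 2 arrays were left out. Its lowest, median and highest values were 4.92, 5.05 and 5.32 in RW-SC, 4.93, 5.17 and 7.72 in RW-MS, and 5.09, 5.16 and 5.27 in RW-SS. In obese mice they were 5.08, 5.22 and 6.52 in DIO-SC, 4.85, 5.03 and 5.36 in DIO-MS, and 4.86, 5.01 and 5.03 in DIO-SS. All 8 DIO-SS arrays lay below the lowest RW-SS array and below the lowest DIO-SC array. How many of all genes separate in this way was not counted. With all arrays the differences did not pass: -0.39 for DIO-SS against DIO-SC (adjusted p = 0.166), -0.19 for DIO-SS against RW-SS (0.528) and -0.47 for the sidestream interaction, the smoke effect in DIO minus that in RW mice (0.252, limma). Without RW-MS 7 and DIO-SC 2, the arrays highest in Cd8a and chosen after the data were seen, they were -0.22 (0.00439), -0.19 (0.0113) and -0.31 (0.00677, limma). In that setting 33.8%, 35.2% and 30.6% of all genes were called, and 10.1%, 13.9% and 10.9% were called lower. Without RW-MS 7 alone, DIO-SS against DIO-SC was at -0.39 (0.00670) and the interaction at -0.47 (0.0232). RW-MS 7 is in no group of these 2 comparisons, so the differences kept their size and only the shared spread changed. Both differences still held DIO-SC 2, whose removal brought them to the -0.22 and -0.31 above. The share of all genes called without RW-MS 7 alone was not counted. Over the 43 arrays without both, Cd8a ranged from 4.85 to 5.36. Its second probe set read 3.57 to 4.02 in DIO-SS and 4.02 to 4.41 in DIO-SC other than DIO-SC 2, and 3.75 to 4.26 in RW-SS.

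Some other T cell genes were lower in DIO-SS as well, and so were the means of some lists of other cell types. Of 8 tested against DIO-SC, 4 were lower, beside 8.82% of all genes called lower: Cd3e, another chain of the receptor complex (-0.32, adjusted p = 0.00883), the coreceptor Cd4 (-0.20, 0.0111), Cd6 (-0.28, 0.0127) and the kinase Zap70 (-0.20, 0.0423, limma). The same 4 were lower without RW-MS 7 and DIO-SC 2, beside 10.1% of all genes. With all arrays the other 4 tested, Cd28, Lat, Thy1 and Ets1, each highest on RW-MS 7, did not pass against DIO-SC. In DIO-SS against RW-SS 2 of 8 T cell genes were lower, beside 12.9% of all genes called lower. In the sidestream interaction Cd3e (-0.45), Zap70 (-0.42) and Cd6 (-0.38) were lower, 3 of 8 beside 10.1% of all genes. Lists of other cell types moved in the same comparisons. Of 7 endothelial genes 5 were higher in DIO-SS against DIO-SC, beside 23.0% of all genes called higher. In the sidestream interaction 3 of 7 endothelial and 3 of 7 fibroblast genes were higher, beside 18.3% of all genes. There 3 of 4 red cell and 3 of 7 dendritic cell genes were lower, beside 10.1%. The part of cell makeup in the T cell values was not tested. The T cell list mean ranged from -0.21 to -0.07 in DIO-SS, from -0.14 to 0.63 in DIO-SC, and from -0.04 to 0.07 in RW-SS. That of NK and cytotoxic cells ranged from -0.22 to -0.07 in DIO-SS and from -0.03 to 0.14 in DIO-SC. List medians in DIO-SS and DIO-SC were -0.175 and -0.124 for B cells, -0.13 and 0.02 for neutrophils, and -0.20 and -0.09 for lung epithelium. Endothelial and fibroblast medians were higher in DIO-SS. Cd3e and Cd6 had their highest values on RW-MS 7, and Cd4 and Zap70 on RW-MS 8. Low readings such as those of Cd8a lie near the level below which genes were left out.

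The interactions asked whether smoke acted differently in the 2 diets. For mainstream smoke 0 of 8 genes passed, where 0.226% of all genes were called, and for sidestream smoke 0 of 8, where 28.4% were (limma). At an unadjusted p under 0.05 there were 1 (Cd8a) and 0 of 8, against 11.4% and 40.3% of all genes. For H2-Aa the interaction was 0.16 (95% interval -0.52 to 0.84) with mainstream and -0.02 (-0.68 to 0.65) with sidestream smoke. Cd3d gave -0.46 (-1.35 to 0.42) and -0.20 (-1.06 to 0.67), intervals that RW-MS 7 and DIO-SC 2 widened.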

How the data were processed

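Biotin-labelled heart RNA (3 µg per mouse) was hybridized to 1 one-colour Affymetrix array per mouse. The authors deposited log2 expression values per probe set, and the submitters' processing notes name RMA, with no version or settings. RMA includes quantile normalization between arrays, so a shift shared by all genes is removed. The labels call the arrays of a group biological replicates, and no scan date or batch was given. The growth protocol mentions LPS, whereas titles and treatment protocol name smoke, which was followed here.

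Of 22690 probe sets, 20393 carried 1 annotated gene, 691 carried several and 1606 had no entry. No gene was named from a probe set with several. In all, 12394 genes were represented, and 9295 were tested. The test was that of limma 3.58.1 (R 4.3.3) on group means over all 45 arrays (lmFit and eBayes, two-sided, 42.6 residual degrees of freedom with the prior), with Benjamini-Hochberg adjustment within a comparison and a threshold of 0.05. The procedure was tested on simulated data. Figures were drawn with matplotlib 3.10.9 in Python 3.11.15 with pandas 2.3.3.

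Named were the 10 member genes, up to 4 genes past the threshold per list and comparison, and the 5 genes most like each group of members. The genes named as array markers, the odd arrays left out and the 2 covariates were chosen after values were seen. The members and lists were chosen with earlier results of these data known. NK cell, dendritic cell, neutrophil, red cell, lung epithelium, endothelium and fibroblast lists were also read.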

Additional observations from a re-analysis of the deposited data

Results flagged for a closer look

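Within a group, the highest or lowest array was marked if its gap to the next array, as a share of the group's range, exceeded Dixon's 95% critical value. Of 90 groups by probe set, 27 were marked, where chance alone marks about 1 in 20 if marks are independent. They are not, as the probe sets were read on the same RNA samples. Of the 27 marks, 13 fell on RW-MS 7, 5 on DIO-MS 1 and 4 on DIO-SC 2.

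RW-MS 7 was marked as the highest of its group for 13 probe sets. Its values were 9.37 for H2-Eb1, 8.58 for Cd3g, 4.28 for the weaker Ciita probe set, 6.74 for H2-DMa, 8.69 for Cd3d and 9.36 for Cd74. For genes with several probe sets they were 7.72 and 6.67 for Cd8a, 9.64, 8.65 and 8.21 for H2-Ab1, and 11.34 and 8.69 for H2-Aa. DIO-SC 2 was marked for Cd3g (6.50), Cd3d (7.03) and both Cd8a probe sets (6.52 and 5.57).

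RW-SC 1 was marked for Cd79b (8.24) and Cd74 (9.30), and RW-SS 7 for H2-Eb1 (9.88) and H2-DMa (7.15). DIO-MS 1 was marked for H2-Eb1 (8.70), Cd74 (8.51), H2-Ab1 (8.82) and both H2-Aa probe sets (10.45 and 7.87). DIO-MS 5 was marked as the lowest of its group for the weaker Cd8a probe set (3.79).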

How the results depend on the processing

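The alternatives were no filter, a stricter filter leaving out 50% of genes, the mean of a gene's probe sets or every probe set apart, another quantile normalization, array weights, trended and robust eBayes, fits of just the compared groups, and each array left out. The diet count of 4 genes was 4 under all 10 of these settings, counting 2 replicate blocks, and 4 to 5 without any 1 array, H2-DMa joining without DIO-MS 1 (adjusted p = 0.0461) or RW-SS 6 (0.0425). Not all settings tested the same genes: H2-DMa, Cd79b and Cd3d were tested in 9 of the 10 and Cd8a in 8. With every probe set apart, the count took only the probe set that represents a gene. The share of all genes called was not counted in these settings. No value that had passed reversed its sign. The main fit did not pair mice by replicate number. Same-numbered arrays deviated together with a mean r of -0.06 to 0.11, and single pairs ran from -0.56 to 0.47. Arrays with different numbers were not read beside them, so whether the numbers pair mice was not settled. With the title number as a replicate block the diet count was 4 (H2-Aa -0.42), and with the animal number also 4 (H2-Aa -0.43), and the block changed no other call.

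With array weights the count was 1 for DIO-SS against DIO-SC and 4 for DIO-SC against RW-SC. With only the groups compared it was 1 for DIO-SS against RW-SS and 1 for the sidestream interaction. Leaving out 1 array gave 0 to 1 for DIO-SS against DIO-SC (1, Cd8a, without RW-MS 7), for DIO-SS against RW-SS (1, H2-Aa, without RW-SS 2) and for the sidestream interaction (1, Cd8a, without RW-MS 7). For array weights, the compared groups alone and 1 array left out, the share of all genes called was not counted. These counts are thus not set beside all genes. The 5 alternatives chosen after the data were seen moved more. Without RW-MS 7 and DIO-SC 2 the counts were 1 for DIO-SS against DIO-SC, 3 for DIO-SC against RW-SC, 2 for DIO-SS against RW-SS and 1 for the sidestream interaction. In the same order 33.8%, 22.3%, 35.2% and 30.6% of all genes were called. Without those and RW-SC 1 and RW-SS 7 the counts were 1, 3, 1 and 1, beside 36.9%, 23.6%, 36.1% and 32% of all genes. Without DIO-MS 1 as well they were 2, 4, 1 and 1 (36.7%, 23.6%, 36.1% and 32.1%), and 1 for DIO-MS against RW-MS (12.1%). There H2-Aa was higher in DIO-SS than in DIO-SC (0.33). The fat cell term gave 0 for the diet average (30.9% of all genes). The macrophage term gave 3 for RW-SS against RW-SC (27.1%) and 4 for DIO-SS against RW-SS (36.1%). Why single counts moved was not tested beyond this. Low readings limit Ciita, Cd3g and Cd8a.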
